A study of Homo sapiens with 8 samples.

Results

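SDC1 encodes syndecan-1, the cell-surface proteoglycan known as CD138, and its locus was followed by ATAC-seq, in which a transposase cuts and tags accessible DNA, in 2 established human multiple myeloma cell lines, JJN3 and KMS11. All peaks whose nearest transcript in the authors' annotation belongs to SDC1 (ENSG00000115884.9) were taken, which gave 8 of the 62528 peaks counted in the series. The gene was chosen by its lower measured accessibility under the drug combination than under DMSO, so every value of that contrast at SDC1 is a description without a test. Each line was grown with 5% serum and treated for 48 h in 4 ways, and each culture condition gave 1 library. Cells received either the combination of pomalidomide at 200 nM with GNE-781 at 40 nM, pomalidomide alone at 200 nM, GNE-781 alone at 40 nM, or the solvent DMSO. Both lines grow from malignant plasma cells, and cells that overexpress BATF or eGFP are not analysed here.

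Syndecan-1 is a single-pass membrane protein that carries heparan sulfate chains on its extracellular part. Those chains bind growth factors and cytokines and hold them near their receptors, and proteases can shed the extracellular part into the medium. Within the blood lineage the protein appears as B cells mature into plasma cells, and it is the usual surface marker by which normal and malignant plasma cells are recognised. Through cereblon, pomalidomide marks the lymphoid transcription factors IKZF1 and IKZF3 for degradation. GNE-781 is a bromodomain inhibitor of EP300 and CREBBP, acetyltransferases that act at enhancers.

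SDC1 lies on the minus strand of chromosome 2 in GRCh38. The transcript that the authors' annotation gives for its promoter and gene-body peaks runs from 20204152 to 20225094, starting at the higher coordinate. The promoter peak spanned chr2:20224802-20225911 and covered 1110 bp around that start. RefSeq (GRCh38.p14) lists 2 starts for the gene, at 20225475 and 20225130, and both of the 300-base promoter windows given for them, 250 bases before and 50 after each start, lie inside this peak. They are shown because this peak held the most SDC1 reads and covers both starts. The windows are printed 5′ to 3′ on the gene's strand, as chr2:20225426-20225725 (start 1) and chr2:20225081-20225380 (start 2), with matches to the motifs GGGCGG and GGGAA in capitals, on either strand.
start 1: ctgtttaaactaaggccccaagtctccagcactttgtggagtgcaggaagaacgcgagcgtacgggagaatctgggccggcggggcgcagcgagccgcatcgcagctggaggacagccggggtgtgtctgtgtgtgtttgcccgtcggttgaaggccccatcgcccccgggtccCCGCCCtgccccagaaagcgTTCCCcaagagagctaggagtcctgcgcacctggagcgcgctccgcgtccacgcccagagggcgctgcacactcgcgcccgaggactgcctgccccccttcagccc
start 2: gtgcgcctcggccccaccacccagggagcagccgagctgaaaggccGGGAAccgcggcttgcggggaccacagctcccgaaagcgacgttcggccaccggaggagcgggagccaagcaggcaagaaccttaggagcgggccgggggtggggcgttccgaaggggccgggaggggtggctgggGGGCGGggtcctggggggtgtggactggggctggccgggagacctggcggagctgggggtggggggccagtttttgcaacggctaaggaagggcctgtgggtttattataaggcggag

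The G and C content was 67.7% in the start 1 window and 70.7% in the start 2 window, against a median of 58.7% over all 35116 promoter windows in the RefSeq table. Of 14 motifs searched on both strands, GGGCGG, the core of a GC box, matched once in each window and is found in 45% of all windows. The letters GGGAA, a core shared by Ikaros-type and NF-kappaB sites, also matched once in each and are found in 65% of all windows. In the start 1 window both matches lie on the reverse strand, 76 and 56 bases before the start, and in the start 2 window both lie on the forward strand, 68 and 204 bases before it. The other 12 motifs had no match in these windows. They were the core of the interferon-stimulated response element (3.57% of all windows), the ETS-IRF composite element (2.82%), TGANTCA of AP-1 (7.71%), TGCTGA of MAF half-sites (17.3%), CACGTG of E-boxes (7.26%), CCAAT (34.6%), ATGCAAAT of octamer sites (1.77%), CCGGAAGT of ETS sites (4.14%), the full NF-kappaB site (0.558%), TATAAA (11.5%), TGACGTCA of CREB (1.85%) and ACGTGG, found in unfolded-protein-response elements (9.72%). GGGAA can overlap the full NF-kappaB and ETS-IRF sites by letters, and a match describes the letters alone.

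The other 7 SDC1 peaks are named here by the distance of their nearest edge from the start at 20225094. An intergenic peak lies 6.54 kb upstream (chr2:20231639-20232003, 365 bp). Inside the gene, the first is the 1.06 kb peak (chr2:20223726-20224029, 304 bp), which falls just outside the 1000 bp that defined a promoter peak. The 10.5 kb peak (chr2:20214260-20214619, 360 bp), the 12.2 kb peak (chr2:20212415-20212852, 438 bp), the 16.3 kb peak (chr2:20208476-20208825, 350 bp) and the 17.6 kb peak (chr2:20206977-20207506, 530 bp) follow towards the 3′ end. The 26.5 kb peak (chr2:20197927-20198622, 696 bp) lies past the end of the gene. Its SDC1 transcript in the authors' annotation runs from 20200797 to 20225112, at a distance of 2174 bp. Nearest-gene annotation does not show that a peak acts on SDC1, and exon and intron positions are not used here.

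The library totals over all peaks ran from 1366628 reads in JJN3 with DMSO to 5435673 reads in KMS11 with the combination, so the 4 JJN3 libraries, at up to 3218581 reads, were on the whole shallower. SDC1 peaks held 10 to 230 reads per library, and intervals on single libraries below cover counting error only. Whether PCR copies were removed is not given in the sources used here, and if they remain, even those intervals may be too narrow. Promoter peaks took 47.5% to 50.9% of the reads in every library. As a check of the cell type, 7 of 9 plasma cell markers had a promoter peak, SDC1 among them, with a summed level of 199.75 to 231.55 CPM (reads scaled to a common library total, with the TMM factors of edgeR); TNFRSF17 had no peak and JCHAIN none at its promoter. Of the other lists, B cell markers had a promoter peak at PAX5 alone among 5 genes, summing to 0.97 to 10.1 CPM. None of 4 T and NK cell markers or 3 myeloid markers had one. EPCAM was the only 1 of 3 epithelial markers, at 14.4 to 41.0 CPM, and COL1A1 and COL1A2 were 2 of 3 stromal markers, at 13.5 to 55.1 CPM.

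Under DMSO, SDC1 was open at its promoter, and per length some peaks of the gene body were denser than the promoter, at 16.3 and 17.6 kb in JJN3 and at 10.5 and 17.6 kb in KMS11. Per length, the promoter peak had 52.8 CPM per kb in JJN3 and 49.9 in KMS11 under DMSO, above 79.2% and 80.3% of all 15906 promoter peaks tested. The 16.3 kb peak had 81.6 CPM per kb in JJN3 and 46.6 in KMS11, above 97.3% and 94.6% of 26769 peaks in genes. The 17.6 kb peak had 68.1 and 54.2 CPM per kb, above 94.8% and 97.1% of them. The highest density in KMS11 was at the 10.5 kb peak, with 45.9 CPM per kb in JJN3 and 74.8 in KMS11, above 84.7% and 99.3% of peaks in genes. So the densest SDC1 peak under DMSO was a gene-body peak in each line, but not the same peak. The lowest densities were 21.6 CPM per kb at the 26.5 kb peak in JJN3 and 22.7 at the upstream peak in KMS11. Since the peaks' edges come from 1 union of calls, a density also depends on how wide a peak was drawn.

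The sum over all 8 SDC1 peaks was lowest under the combination and highest under DMSO in both lines. It was 120 CPM under the combination, 145 under pomalidomide and 142 under GNE-781 in JJN3, against 193 under DMSO. In KMS11 it was 116 CPM under the combination, 167 under pomalidomide and 135 under GNE-781, against 181 under DMSO. Averaged over lines, the sum was 118 ± 2.4 CPM under the combination, 156 ± 15.1 under pomalidomide and 138 ± 5.0 under GNE-781, against 187 ± 8.2 under DMSO (SD, n = 2 lines each). These sums rest on 244, 440 and 220 reads in treated JJN3, against 255 with DMSO, and on 658, 779 and 420 reads in treated KMS11, against 701 with DMSO. The share of SDC1 reads that fell in the promoter peak stayed between 28.6% and 33.2% over the 8 libraries.

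**Figure D1:**
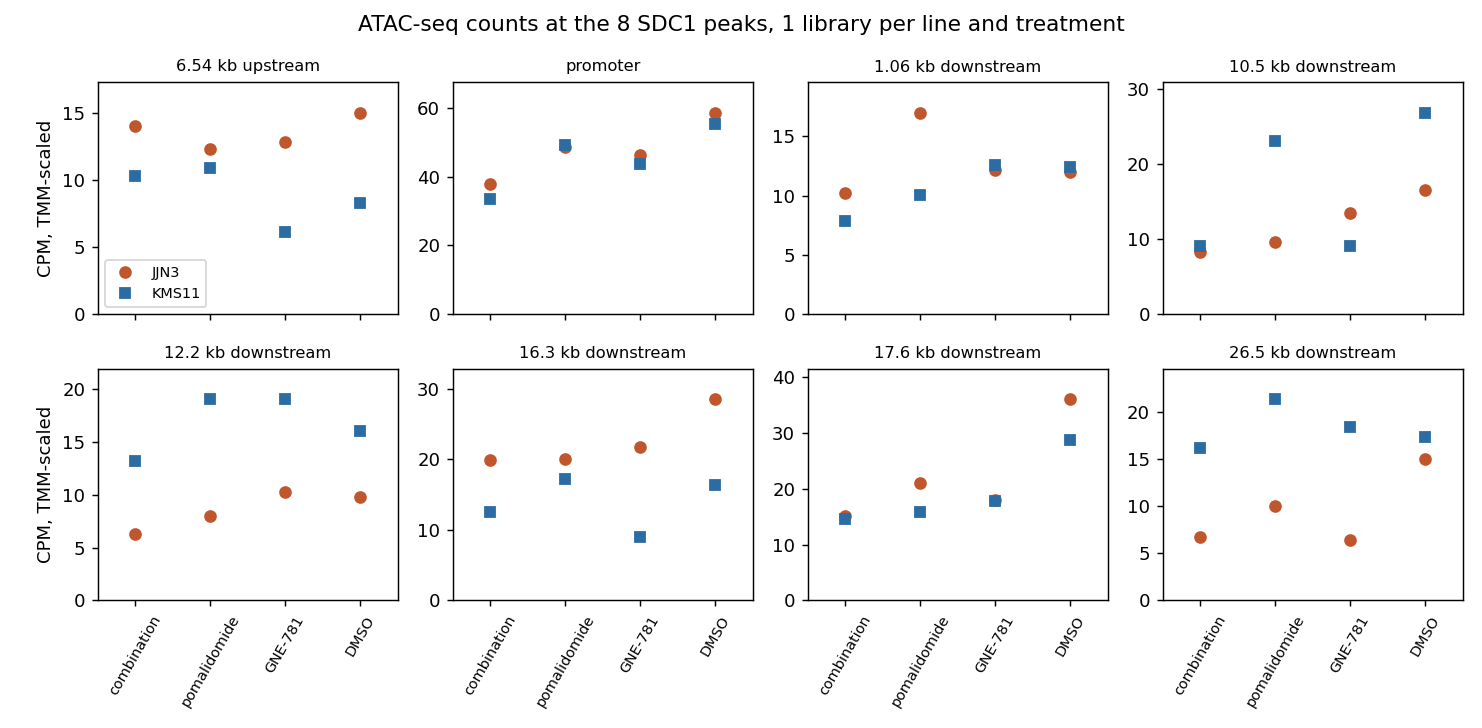
Reads scaled to the library total (CPM) at each of the 8 SDC1 peaks, ordered along the gene, for the 4 treatments in JJN3 and KMS11; each point is 1 library. At the promoter peak the combination points stand at 37.8 and 33.5 CPM, below the DMSO points at 58.6 and 55.4 CPM, with the single agents between.

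Fitted over both lines, the log2 change under the combination was furthest below 0 at the 10.5 kb and 17.6 kb peaks, in the gene body, followed by the promoter peak. That order did not hold within JJN3, where the 26.5 kb peak, on 14 reads under the combination and 20 under DMSO, was at -1.13, below the 10.5 kb peak at -0.995. The promoter peak had 37.8 CPM under the combination, 48.7 under pomalidomide and 46.2 under GNE-781 in JJN3, against 58.6 under DMSO. In KMS11 it had 33.5 CPM under the combination, 49.3 under pomalidomide and 43.7 under GNE-781, against 55.4 under DMSO. The order of the treatments was thus the same in both lines, and no combination library overlapped a DMSO library. In bulk libraries, fewer cells with an open site and less access per cell cannot be told apart. Its fitted log2 change under the combination was -0.69 ± 0.20 (SE over both lines).

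At the 10.5 kb peak, which treatments were low was not the same in both lines, a difference between single libraries that was not tested. In JJN3 it had 8.24 CPM under the combination, 9.66 under pomalidomide and 13.5 under GNE-781, against 16.5 under DMSO. In KMS11 it had 9.08 CPM under the combination, 23.2 under pomalidomide and 9.06 under GNE-781, against 26.9 under DMSO. In KMS11 the pair of libraries with GNE-781 was low and the pair without it was high, whereas in JJN3 the pair with pomalidomide was the lower. The fitted log2 change under the combination was -1.38 ± 0.32, the largest of the 8.

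The 17.6 kb peak was high in the DMSO libraries and lower, at similar levels, in all treated libraries. It had 15.03 CPM under the combination, 21.0 under pomalidomide and 18.0 under GNE-781 in JJN3, against 36.1 under DMSO. In KMS11 it had 14.6 CPM under the combination, 15.9 under pomalidomide and 17.8 under GNE-781, against 28.7 under DMSO. The 6 treated libraries therefore lay at 14.6 to 21.0 CPM, below both DMSO libraries. How many of all peaks separate this way was not counted. The separation holds the combination and DMSO libraries that chose the gene, so nothing is read from it. The fitted log2 change was -1.09 ± 0.26 under the combination.

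The remaining peaks had smaller fitted changes over both lines, between -0.51 and 0.14 on the log2 scale. The 1.06 kb peak had 10.2 CPM under the combination, 17.0 under pomalidomide and 12.2 under GNE-781 in JJN3, against 12.0 under DMSO, and 7.84, 10.1 and 12.6 CPM for those treatments in KMS11, against 12.4 under DMSO. Its combination libraries were the lowest of each line, with a fitted log2 change of -0.51 ± 0.33. The 16.3 kb peak had 19.9 CPM under the combination, 20.0 under pomalidomide and 21.8 under GNE-781 in JJN3, against 28.6 under DMSO, and 12.5, 17.2 and 9.06 CPM in KMS11, against 16.3 under DMSO. Here JJN3 was above KMS11 under every treatment, and the combination change was -0.45 ± 0.28 on the log2 scale.

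At the 12.2 kb peak JJN3 had 6.30 CPM under the combination, 7.998 under pomalidomide and 10.3 under GNE-781, against 9.77 under DMSO. In KMS11 the values were 13.2 CPM under the combination and 19.1 under each single agent, against 16.05 under DMSO. The combination was the lowest library of each line there, with a log2 change of -0.38 ± 0.32. The 26.5 kb peak had 6.79 CPM under the combination, 9.997 under pomalidomide and 6.41 under GNE-781 in JJN3, against 15.03 under DMSO, and 16.2, 21.4 and 18.4 CPM in KMS11, against 17.3 under DMSO. All treated libraries were below DMSO there in JJN3 and only the combination in KMS11, with a combination change of -0.42 ± 0.31. That value rests on single libraries, at -1.14 without KMS11 DMSO and -0.13 without JJN3 DMSO. Without KMS11 DMSO the 1.06 kb change was -0.22 and the 12.2 kb change -0.65. The upstream peak had 14.1 CPM under the combination, 12.3 under pomalidomide and 12.8 under GNE-781 in JJN3, against 15.03 under DMSO, and 10.3, 10.9 and 6.14 CPM in KMS11, against 8.28 under DMSO. It alone had a fitted change above 0, at 0.14 ± 0.33, which is within its error.

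By CPM, the combination was below DMSO in both lines at 7 of the 8 SDC1 peaks, beside 29.3% of all 62234 peaks tested. At 4 of the 8, the promoter, 1.06 kb, 10.5 kb and 17.6 kb peaks, both combination libraries lay below both DMSO libraries, beside 11.0% of all peaks. In the quasi-likelihood test of edgeR over all peaks, with a call at a Benjamini-Hochberg adjusted p under 0.05, the combination called 4.79% of all peaks against DMSO, with 2.67% of all peaks lower and 2.11% higher. No call is given for SDC1 peaks in that contrast. The CPM counts use the contrast that chose the gene, and nothing is read from them. The median fitted log2 change was -0.48 over the 8 SDC1 peaks and 0.00 over all peaks tested.

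Within each line the combination change can be set against its counting error, with no replicate behind it. Because this contrast chose the gene, an interval that leaves out 0 is no test of a change, in either line. For the summed SDC1 reads the log2 ratio of combination to DMSO was -0.70 (95% exact conditional interval -0.96 to -0.44) in JJN3 and -0.63 (-0.79 to -0.48) in KMS11. For the promoter peak it was -0.63 (-1.10 to -0.16) in JJN3 and -0.73 (-1.02 to -0.44) in KMS11. The lines thus lay close together for the sum and the promoter. For the 10.5 kb peak it was -0.995 (-2.01 to -0.02) in JJN3 and -1.56 (-2.08 to -1.07) in KMS11, and for the 17.6 kb peak -1.26 (-1.96 to -0.58) and -0.97 (-1.41 to -0.55). The lines lay furthest apart at the 26.5 kb peak, at -1.13 (-2.24 to -0.09) in JJN3 and -0.10 (-0.57 to 0.38) in KMS11, with intervals that overlap.

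**Figure D2:**
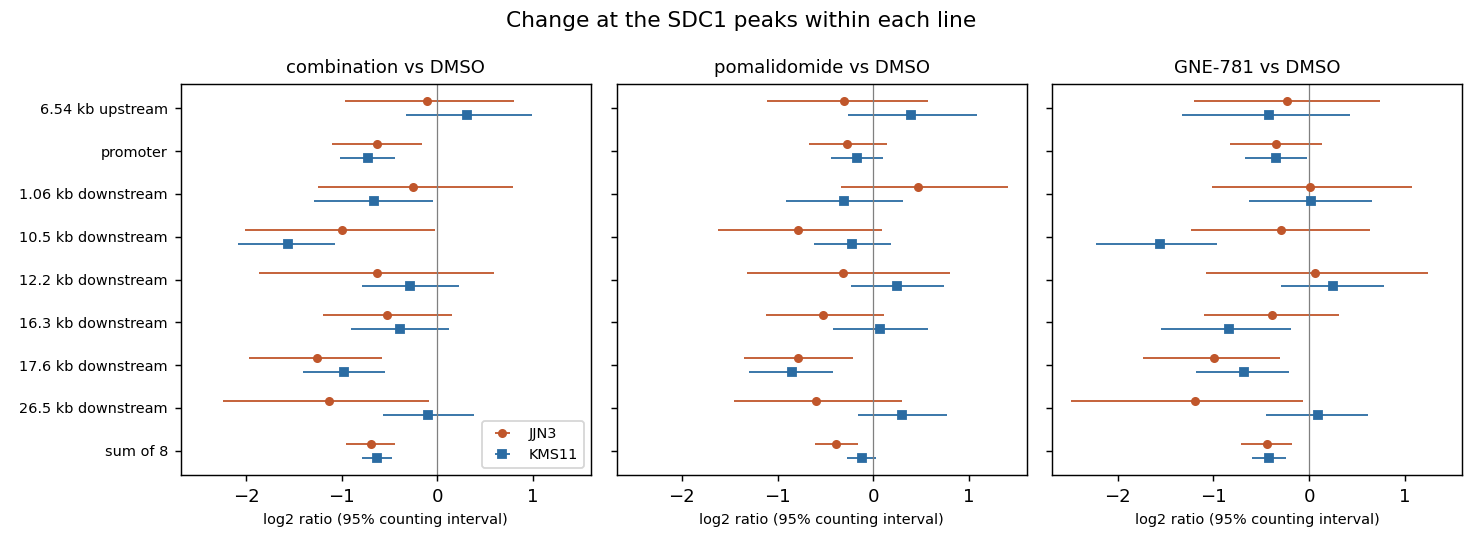
Log2 ratio of each treatment to DMSO within JJN3 and within KMS11 at the 8 SDC1 peaks and their sum; points are single-library ratios and bars are 95% exact counting intervals. The combination ratios of the summed reads are -0.70 in JJN3 and -0.63 in KMS11, and the GNE-781 ratio of the 10.5 kb peak is -1.55 in KMS11 against -0.29 in JJN3.

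Neither single agent had a called SDC1 peak. Both comparisons share the DMSO libraries with the contrast that chose the gene, so high DMSO values there enter these too. For pomalidomide, edgeR called 0 of 8 peaks, beside 1.25% of all peaks, and DESeq2 also called 0. At an unadjusted p under 0.05 edgeR had 1 of 8, beside 6956 of all 62234 peaks. That peak was the 17.6 kb peak, with a log2 change of -0.81 ± 0.25 (SE, edgeR adjusted p = 0.0859), lower than DMSO in both lines (-0.78 in JJN3 and -0.85 in KMS11). The other 7 had changes from -0.42 to 0.10, with adjusted p from 0.661 to 0.995, and the promoter peak had -0.21 ± 0.19 (adjusted p = 0.769). The sum over SDC1 peaks had a log2 change of -0.25 ± 0.13 under pomalidomide (edgeR adjusted p = 0.534 over 24872 gene sums), and -0.39 (-0.61 to -0.16) in JJN3 beside -0.12 (-0.27 to 0.03) in KMS11. The median over the 8 SDC1 peaks was -0.09, and over all peaks 0.02.

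For GNE-781, edgeR called 0 of 8 SDC1 peaks, beside 0.0209% of all peaks, and DESeq2 called 0. At an unadjusted p under 0.05 edgeR had 2 of 8, beside 4096 of all 62234 peaks. One was the 10.5 kb peak, at -1.06 ± 0.34 (edgeR adjusted p = 0.401), which was -0.29 (-1.23 to 0.63) in JJN3 and -1.55 (-2.23 to -0.96) in KMS11. The other was the 17.6 kb peak, at -0.82 ± 0.26 (adjusted p = 0.409), and JJN3 had -0.996 beside -0.69 in KMS11. So the 10.5 kb value rested mainly on KMS11, where 28 reads under GNE-781 stood against 104 under DMSO, while the 17.6 kb value was shared by both lines. The promoter peak had -0.34 ± 0.20 (adjusted p = 0.818), at -0.34 in each line. The sum had a log2 change of -0.43 ± 0.14 (edgeR adjusted p = 0.498), and JJN3 had -0.44 beside -0.42 in KMS11. Over the 8 SDC1 peaks the median change was -0.33, and over all peaks 0.00. The 95% interval of the summed change, -0.71 to -0.16, lies below 0, while its adjusted p over all gene sums misses the threshold. With DMSO and combination libraries included, the promoter peak lay at 33.5 to 46.2 CPM in the 4 libraries with GNE-781 and at 48.7 to 58.6 CPM in the 4 without. That separation was seen in 0.810% of all peaks, and for the SDC1 sum, at 116 to 142 CPM with and 145 to 193 CPM without GNE-781, in 0.768% of gene sums. It holds the libraries that chose the gene, so no test is given.

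Pomalidomide set against GNE-781 compares none of the libraries that chose SDC1, though these enter the line effect, variance and scaling of the fit. In this comparison edgeR called 0 of 8 SDC1 peaks, beside 1.60% of all peaks, and DESeq2 called 0. At an unadjusted p under 0.05 edgeR had 0 of 8, beside 7308 of all 62234 peaks. The 10.5 kb peak had the largest difference, at 0.64 ± 0.33 on the log2 scale (edgeR adjusted p = 0.453, 95% interval -0.02 to 1.29), higher under pomalidomide in KMS11 and lower in JJN3. The promoter peak had 0.13 ± 0.19 (adjusted p = 0.884, interval -0.26 to 0.52). For the sum, the difference was 0.18 ± 0.14 (adjusted p = 0.730), and its interval of -0.09 to 0.45 does not show that the agents act alike. The median over the 8 SDC1 peaks was 0.22, and over all peaks 0.01.

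Set beside the single agents, the combination gave the lowest promoter level in each line. Its fitted log2 difference at the promoter was -0.47 ± 0.19 from pomalidomide and -0.34 ± 0.20 from GNE-781, given as a description because the combination libraries chose the gene. For the SDC1 sum the differences were -0.41 ± 0.13 from pomalidomide and -0.23 ± 0.14 from GNE-781. At the 17.6 kb peak they were -0.27 ± 0.26 and -0.27 ± 0.28, within about 1 SE of 0. Adding the log2 changes of both single agents gave a value that the combination exceeded by 0.03 ± 0.19 for the SDC1 sum. Over the 8 peaks that excess ran from -0.67 at the 12.2 kb peak to 0.54 at the 17.6 kb peak.

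JJN3 and KMS11 were close in their summed SDC1 accessibility, but it was spread differently over the peaks. Over 4 libraries per line the log2 difference of the sum was -0.00 ± 0.10 (edgeR adjusted p = 0.972, 95% interval -0.20 to 0.19). At the promoter it was 0.07 ± 0.14 (adjusted p = 0.669), with 37.8 to 58.6 CPM in JJN3 (median 47.4) and 33.5 to 55.4 CPM in KMS11 (median 46.5). At 2 peaks on the 3′ side of the start KMS11 was higher. The 12.2 kb peak had 6.30 to 10.3 CPM in JJN3 (median 8.88) and 13.2 to 19.1 CPM in KMS11 (median 17.6), without overlap, and a log2 difference of -1.01 ± 0.24 (adjusted p = 0.00024). The 26.5 kb peak had 6.41 to 15.03 CPM in JJN3 (median 8.39) and 16.2 to 21.4 CPM in KMS11 (median 17.9), again without overlap, and -0.99 ± 0.23 (adjusted p = 0.000246). How many of all peaks separate the lines without overlap was not counted, and 54.2% of all peaks differed by edgeR adjusted p alone.

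The 16.3 kb peak went the other way, with 19.9 to 28.6 CPM in JJN3 (median 20.9) and 9.06 to 17.2 CPM in KMS11 (median 14.4), and 0.69 ± 0.20 on the log2 scale (edgeR adjusted p = 0.00314). The upstream peak was also higher in JJN3, at 12.3 to 15.03 CPM in JJN3 and 6.14 to 10.9 CPM in KMS11, with 0.57 ± 0.24 (adjusted p = 0.0387). That pass was lost with library totals (adjusted p = 0.0789), with promoter counts as library size (0.0694) and in DESeq2 (0.112). It was also lost in edgeR without any 1 of the 6 libraries other than those with pomalidomide alone (0.072 to 0.154). The 10.5 kb peak (-0.50 ± 0.24, adjusted p = 0.0647), the 1.06 kb peak (0.31 ± 0.23, adjusted p = 0.268) and the 17.6 kb peak (0.22 ± 0.19, adjusted p = 0.328) did not pass. By adjusted p alone 4 of 8 SDC1 peaks differed between the lines, beside 54.2% of all peaks, and with the 2-fold change that a call also required it was 1 of 8, the 12.2 kb peak, beside 31.9%. Both shares are at or below those of all peaks. The 26.5 kb peak missed the call by its fold alone, at 1.99-fold against 2.01-fold for the 12.2 kb peak, and whether either was called turned on the scaling, the tool and the libraries kept. Of the 4 that passed by adjusted p, 2 were higher in JJN3 and 2 in KMS11.

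**Figure D3:**
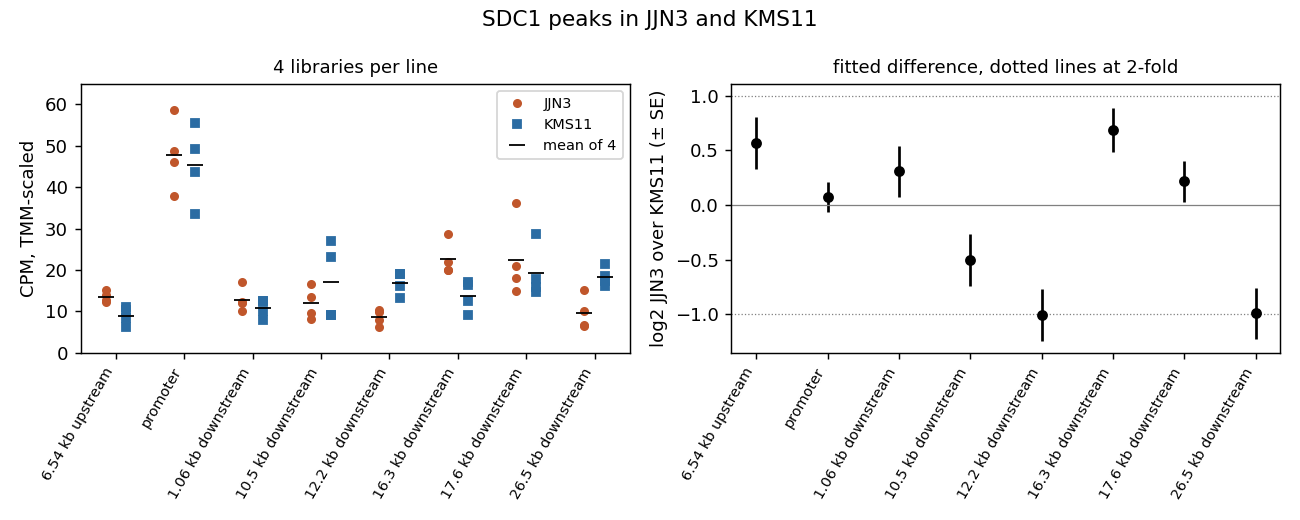
CPM at each SDC1 peak in the 4 JJN3 and the 4 KMS11 libraries, with 1 point per library and the line's mean, and beside it the fitted log2 difference of JJN3 over KMS11 ± SE, with dotted lines at 2-fold. The lines do not overlap at the 12.2 kb and 26.5 kb peaks, where KMS11 is higher, or at the 16.3 kb and upstream peaks, where JJN3 is higher, and they overlap at the promoter. The share of all peaks without overlap between the lines was not counted.

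To see how far along the chromosome the combination values extend, all peaks within 250000 bp of the SDC1 start were taken, 33 in all, of which 25 belong to other genes or entries. Of these 25, 17 had a fitted combination change below 0, with a median of -0.15. One of the 25 was called lower, beside 2.67% of all peaks, an intergenic peak at chr2:20151102-20151867, with its centre 73.6 kb downstream of the SDC1 start and nearest to AC098828.3. It had 17.0 CPM under the combination, 29.0 under pomalidomide and 21.8 under GNE-781 in JJN3, against 45.8 under DMSO, and 7.12, 14.2 and 10.7 CPM in KMS11, against 20.4 under DMSO. That is the order of treatments seen at the SDC1 promoter, in both lines. Its log2 change was -1.48 ± 0.27 under the combination (edgeR adjusted p = 0.000271), and without the KMS11 combination library the adjusted p was 0.0512. Under pomalidomide it had -0.60 ± 0.25 (adjusted p = 0.298) and under GNE-781 -1.0 ± 0.28 (adjusted p = 0.280). For both single agents edgeR called 0 of the 25, beside 1.25% (pomalidomide) and 0.0209% (GNE-781) of all peaks. At an unadjusted p under 0.05 it had 2 and 1, and DESeq2 called 0.

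The next genes on each side did not pass. On the upstream side, the promoter of PUM2, which encodes an RNA-binding translational repressor, had a combination change of -0.21 ± 0.18 (edgeR adjusted p = 0.60). Toward the downstream side, the next entry, the pseudogene RN7SL140P, had -0.21 ± 0.36 (adjusted p = 0.833). The promoters of RHOB, a small GTPase, and LAPTM4A, a lysosomal membrane protein, had -0.15 ± 0.19 and -0.16 ± 0.18 (adjusted p = 0.769 and 0.731).

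**Figure D4:**
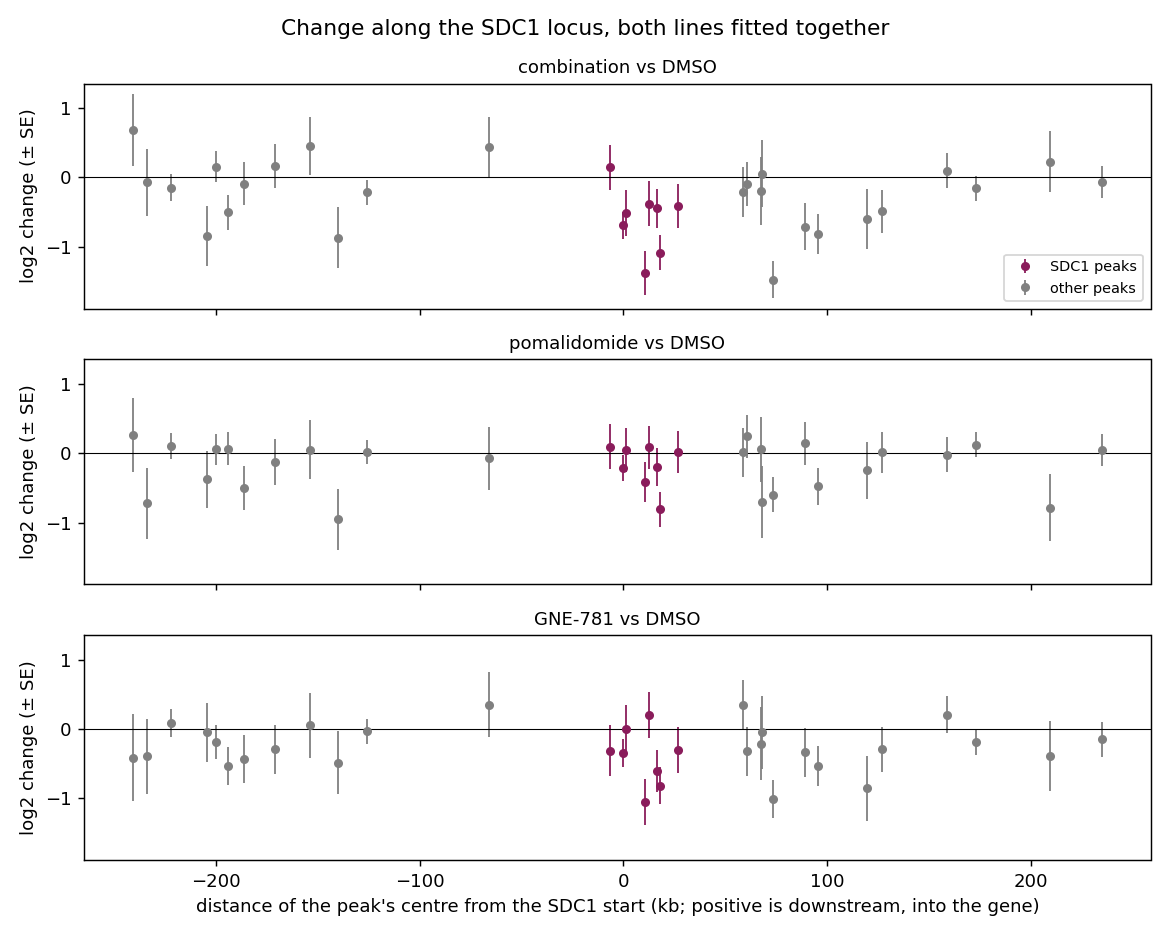
Fitted log2 change of each treatment against DMSO for the peaks within 250 kb of the SDC1 start, by distance of the peak's centre from that start, with SE bars. The lowest combination values are the AC098828.3 peak at 73.6 kb downstream (-1.48) and the SDC1 10.5 kb (-1.38) and 17.6 kb (-1.09) peaks.

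No peak of the other syndecans was called under any of the 3 treatments. Of all peaks, 4.79% were called under the combination, 1.25% under pomalidomide and 0.0209% under GNE-781, so 0 of 14 does not set them apart. At an unadjusted p under 0.05 in edgeR there were 10819 of all 62234 peaks under the combination. SDC2, the syndecan of mesenchymal cells, SDC3, the neural syndecan, and SDC4, the broadly expressed one, had 14 peaks together, and edgeR called 0 of them under the combination (0 at an unadjusted p under 0.05), under pomalidomide (1) and under GNE-781 (0), as DESeq2 did. The SDC2 peak on its start had a combination change of 0.27 ± 0.24 (edgeR adjusted p = 0.629) and the SDC4 promoter -0.13 ± 0.27 (adjusted p = 0.867), while SDC3 had no promoter peak. Together with the glypicans, which carry heparan sulfate on a lipid anchor, 10 of 10 genes had a peak. Of their 48 peaks without SDC1, 3 were called lower under the combination (6.25%, beside 2.67% of all peaks, median change 0.01), all of them at GPC6, inside the gene, with log2 changes of -1.25, -1.45 and -0.96 (edgeR adjusted p = 0.0488, 0.0134 and 0.0427). Without KMS11 DMSO the first was at -0.82 and the third at -1.51, and without JJN3 DMSO the third was at -0.56. Neither single agent called any of the 48, with 5 at an unadjusted p under 0.05 for pomalidomide and 2 for GNE-781, and DESeq2 called 0.

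Enzymes that build heparan sulfate had peaks at 27 of 31 genes and 98 peaks. Under the combination 3 were called higher and 0 lower (3.06%, beside 2.11% of all peaks called higher, median 0.00). NDST3, a deacetylase and sulfotransferase, had an intergenic peak at 2.52 ± 0.50 (edgeR adjusted p = 0.000818), seen mainly in KMS11, with 99 reads under the combination against 9 under DMSO, and at 1.18 without KMS11 DMSO. The EXT1 peak, nearest to the chain polymerase but 441712 bp from its start, had 1.69 ± 0.35 (adjusted p = 0.00133), and the promoter of HS3ST5, a 3-O-sulfotransferase, had 0.66 ± 0.20 (adjusted p = 0.0421). Pomalidomide called 2 of the 98 higher, NDST3 at 2.01 ± 0.51 (adjusted p = 0.0282) and HS6ST2, a 6-O-sulfotransferase, at 1.19 ± 0.28 (adjusted p = 0.0122), beside 1.03% of all peaks called higher. The NDST3 value was 0.66 without KMS11 DMSO and 0.80 without KMS11 pomalidomide, and that of HS6ST2 0.73 without KMS11 pomalidomide. For GNE-781 edgeR called 0, beside 0.0209% of all peaks, with 7 at an unadjusted p under 0.05, and DESeq2 called 0.

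Genes that edit heparan sulfate or shed syndecans had peaks at 8 of 10 genes and 40 peaks, and 1 was called higher under the combination (2.5%, beside 2.11% of all peaks, median 0.16) and 2 under pomalidomide (5%, beside 1.03%, median 0.05). A peak near SULF2, an extracellular sulfatase, rose by 1.42 ± 0.43 under the combination (edgeR adjusted p = 0.0364) and by 1.70 ± 0.41 under pomalidomide (adjusted p = 0.0163). Those values were 2.14 without KMS11 combination and 0.98 without KMS11 pomalidomide. The promoter of HPSE, the heparanase that cleaves heparan sulfate chains, was called under pomalidomide, at 1.06 ± 0.25 (adjusted p = 0.0155). It had 21.8 CPM under the combination, 27.0 under pomalidomide and 14.7 under GNE-781 in JJN3, against 12.8 under DMSO, and 28.8, 34.3 and 18.4 CPM in KMS11, against 16.6 under DMSO. In each line the pair of libraries with pomalidomide was thus the higher at HPSE. Among 20 peaks at 7 of 7 cytoplasmic partners of syndecans, the promoter of GIPC1, a PDZ adaptor, was called higher under the combination (1.21 ± 0.27, adjusted p = 0.00325) and pomalidomide (1.00 ± 0.27, adjusted p = 0.042), with medians of 0.17 and 0.12 over the list. That is 5% of the list under each, beside 2.11% and 1.03% of all peaks called higher.

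Of ligands bound by heparan sulfate and their receptors, 13 of 16 genes had a peak, with 53 peaks, and the combination called 3 higher and 1 lower (7.55%, beside 4.79% of all peaks, median 0.00). IL6R, the receptor of the myeloma growth factor interleukin-6, had peaks in both directions. A called IL6R peak at chr1:154453551-154454151 lies on an annotated transcript start. The other called IL6R peaks lie inside the gene, 4572 and 9848 bp from an earlier start, so that start is internal. The peak on it had 31.5 CPM under the combination, 18.0 under pomalidomide and 12.2 under GNE-781 in JJN3, against 6.01 under DMSO, and 13.4, 10.3 and 11.3 CPM in KMS11, against 6.21 under DMSO. All treated libraries were above the DMSO library of their line there, and the log2 change was 1.61 ± 0.34 under the combination (edgeR adjusted p = 0.00196). A second IL6R peak rose by 0.64 ± 0.20 (adjusted p = 0.0483) and another was at -1.18 ± 0.35 (adjusted p = 0.0342). A peak nearest to HGF, hepatocyte growth factor, rose by 1.51 ± 0.43 (adjusted p = 0.0271), and pomalidomide called 1 peak, at KDR, a VEGF receptor (1.40 ± 0.34, adjusted p = 0.0162), where the value was 0.34 without KMS11 DMSO and -0.12 without KMS11 pomalidomide. The KDR call was 1.89% of the list, beside 1.03% of all peaks called higher under pomalidomide. For GNE-781 edgeR called 0 peaks of the editing, partner and ligand lists, beside 0.0209% of all peaks. At an unadjusted p under 0.05 it had 4, 1 and 5, and DESeq2 called 0. All 19 calls named here outside SDC1, 1 in the window and 18 in these lists, were lost without at least 1 library, so none holds against every omission. Of the 15 to which DESeq2 gave an adjusted p, 3 were called by it, the AC098828.3 peak, the EXT1 peak and the IL6R peak on the internal start.

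Among 7494 gene entries with at least 3 tested peaks, the 5 whose line-centred log2 CPM sums followed SDC1 most closely over the 8 libraries were ADCY8 (Pearson r = 0.991), an adenylyl cyclase, ERGIC1 (0.990), a protein of the ER-Golgi intermediate compartment, AC016142.1 (0.987), PXDN (0.985), a peroxidase of the extracellular matrix, and RP11-27P7.1 (0.981). In all, 106 entries reached a Pearson r of 0.9 or more. The points share libraries, depth and scaling, the entries were picked for this value, and it is given as a description. ERGIC1 summed to 40.7 CPM under the combination, 53.5 under pomalidomide and 49.7 under GNE-781 in JJN3, against 73.4 under DMSO, and to 20.2, 33.1 and 26.9 CPM in KMS11, against 39.9 under DMSO. The order of treatments within KMS11 was that of SDC1, with the combination lowest, then GNE-781, pomalidomide and DMSO, and the same order held in JJN3.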

How the data were processed

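ATAC-seq was measured in 8 libraries, 1 for each of 2 lines and 4 treatments, grouped by the cell line and treatment labels. The authors deposited raw counts, as whole reads without normalization, over 1 union of 62528 peaks called at a MACS2 q of 0.01 per the name of the deposited table. Per the submitters' processing notes, the tools were R 4.1.2, MACS2 2.1.1.20160309, Bowtie2 2.3.5.1, SAMtools 1.10, cutadapt 2.5 and Trim Galore 0.6.4, and the build was GRCh38. For duplicate removal, the Tn5 offset and the counting tool, the step was not given in the sources used here. All 8 SDC1 peaks passed the minimum mean of 2 CPM, which kept 62234 peaks and removed 294.

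Counts were fitted across all peaks in edgeR 4.0.16 (R 4.3.3) and tested by quasi-likelihood, with TMM scaling, 1 effect per treatment and line as a block (3 residual degrees of freedom, 62.8 prior degrees of freedom, common biological coefficient of variation 0.13). Tests were two-sided and adjusted by Benjamini-Hochberg over all peaks, and a call between lines also needed 2-fold. Counts summed per nearest gene gave 24872 gene sums, with TMM factors of their own, tested in the same model. Promoter peaks lie within 1000 bp of the annotated start. Within a line, 95% intervals are exact conditional binomial intervals of 2 counts, and log2 ratios add 0.5 to each count. The labels name no separate cultures, so p-values rest on the spread between these libraries, which holds the differences between lines in their response. With 62.8 prior against 3 residual degrees of freedom, the variance used at a peak comes mainly from all peaks. A difference between the lines at that peak thus enters its p-value only a little, and a call can rest mainly on 1 line. Alternatives were RLE size factors, library totals, promoter counts as library size, no filter, DESeq2 1.42.0, each library left out, and the compared libraries alone. The fits were tested on simulated data.

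SDC1, its peaks and the gene lists were chosen with earlier results of these data known. Named genes were all SDC1 peaks, list members and neighbours with a called peak, the next gene on each side, and the 5 most alike by Pearson r. RHOB, LAPTM4A, SDC2, SDC3 and SDC4 were named besides, after their values were seen. Promoter windows are those of RefSeq for GRCh38.p14.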

Additional observations from a re-analysis of the deposited data

Results flagged for a closer look

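At 5 SDC1 peaks the lines moved in opposite directions from DMSO under at least 1 treatment. Each line has 1 library per treatment, so the differences between the lines were not tested, and no group has the replicates that a check for outlying libraries needs.

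Under pomalidomide 5 peaks did so, as log2 ratios to DMSO within a line. The 26.5 kb peak was at -0.60 in JJN3 and 0.30 in KMS11, a difference of -0.90 (JJN3 minus KMS11). For the upstream peak the values were -0.30 in JJN3 and 0.39 in KMS11, a difference of -0.69. The 16.3 kb peak was at -0.52 in JJN3 and 0.07 in KMS11 (difference -0.59), and the 12.2 kb peak at -0.31 in JJN3 and 0.25 in KMS11 (difference -0.56). In contrast, the 1.06 kb peak was at 0.47 in JJN3 and -0.30 in KMS11, a difference of 0.77. So JJN3 was the lower of the lines at 4 of these 5. In both lines the exact counting interval of each of these 5 peaks held values of either sign. The opposite directions under pomalidomide were therefore not separable from counting error.

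Under GNE-781 the 26.5 kb peak was at -1.19 in JJN3, where 10 reads stood against 20 with DMSO, and at 0.09 in KMS11, a difference of -1.28. Under the combination the upstream peak was at -0.11 in JJN3 and 0.31 in KMS11, a difference of -0.42. The exact 95% counting interval of the upstream peak under the combination spans 0 in both lines. For the 26.5 kb peak under GNE-781 it spans 0 in KMS11 (-0.45 to 0.62) and lies below 0 in JJN3 (-2.49 to -0.07).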

How the results depend on the processing

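The direction of the SDC1 sum under the combination held in all alternatives run, and its log2 change stayed between -0.73 and -0.62 with each library left out, as did the median over the 8 peaks, between -0.67 and -0.47. That contrast chose the gene, so its direction was largely set beforehand, and these ranges describe the processing alone. Over the same omissions the sum ranged from -0.40 to -0.13 under pomalidomide, from -0.51 to -0.38 under GNE-781, from 0.04 to 0.30 for pomalidomide against GNE-781, and from -0.03 to 0.07 between the lines. Counts of called SDC1 peaks were 0 for pomalidomide, GNE-781 and their difference throughout. Between the lines 1 peak was called, which became 0 with RLE size factors and with DESeq2, 2 with library totals and with promoter counts as library size, and 0 to 2 with each library left out. It was 0 without JJN3 pomalidomide, JJN3 combination, KMS11 pomalidomide or KMS11 combination, and 2 without JJN3 DMSO or KMS11 DMSO. The 2 peaks near the 2-fold limit account for this. The 10.5 kb change was -1.59 to -0.24 under GNE-781 and -1.14 to -0.04 under pomalidomide over these omissions. The KDR change under pomalidomide ranged from -0.12, without KMS11 pomalidomide, to 1.69 over these omissions. That peak had 47.8 CPM under pomalidomide against 14.2 under DMSO in KMS11, and 3.33 against 4.51 CPM in JJN3. The rise was thus in KMS11 alone, and the difference between the lines was not tested. Of the 5 entries most like SDC1, 5 remained with RLE size factors and 3 with Spearman's rho. Treatments were paired within lines in every fit through the line block, and the labels give no replicate numbers for a further block. Peaks with 10 to 30 reads in JJN3 have wide counting intervals, and falls of the size seen at the 1.06 kb or 12.2 kb peak were not separable from counting error there.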
